A study of Mus musculus with 12 samples.

Results

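The mouse NLRP genes that oocytes use, other than Nlrp5, were followed in ovaries of Lhx8 knockout (KO) and wild-type (WT) mice at postnatal day 7 (P7) and day 0 (P0). Members were chosen by symbol, with older symbols matched by Entrez ID: Nlrp2, Nlrp14, Nlrp4a, Nlrp4b, Nlrp4c, Nlrp4e, Nlrp4f, Nlrp9a, Nlrp9b and Nlrp9c. These 10 genes had 15 of the 45281 probes on the array, which named 19057 genes in all. Total RNA from ovaries was measured on Illumina BeadChips, with 3 animals in each of 4 groups and 12 arrays in all: KO P7, WT P7, KO P0 and WT P0. All animals were of a mixed 129, C57BL/6, SF1 background. The KO groups carried the Lhx8 mutant allele, whose structure, and whether other cells than oocytes lost the gene, the labels do not give. The labels name the tissue as oocytes, while the protocols describe gonads and ovaries. All 13 tested granulosa cell marker genes were above background in WT ovaries at P7, so RNA of other ovarian cells was in the samples.

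NLRP proteins join a pyrin domain and a nucleotide-binding NACHT domain to leucine-rich repeats. Some members, such as NLRP3, build inflammasomes in immune cells, while a separate branch is transcribed in growing oocytes and its products are stored in the egg for the early embryo. In mouse, NLRP5 and NLRP4F belong to the subcortical maternal complex of the egg, loss of maternal NLRP2 or NLRP14 harms early embryos, and the Nlrp4 and Nlrp9 genes have multiplied by duplication. Lhx8 encodes a LIM homeodomain transcription factor that oocytes need to pass from the primordial follicle stage.

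Of the members, 9 genes lie on chromosome 7 and Nlrp4f lies on chromosome 13, and Nlrp9c, Nlrp4a and Nlrp9a are consecutive genes in RefSeq (GRCm38.p6). RefSeq promoter windows, from 250 bases before to 50 bases after a transcription start, were at hand for 9 of the 10 genes (11 windows of 300 bases). Nlrp14 is named without one. Nlrp9a and Nlrp9c are shown with Nlrp9b, the third gene of their group, which stayed below background on every array. Nlrp4a, the gene between Nlrp9c and Nlrp9a, is shown by its second RefSeq start together with Nlrp4c. Each is written 5′ to 3′ on the gene's own strand, and capitals mark runs of at least 20 bases shared by the windows of 2 member genes.
Nlrp9a, chr7:26534773-26535072, plus strand: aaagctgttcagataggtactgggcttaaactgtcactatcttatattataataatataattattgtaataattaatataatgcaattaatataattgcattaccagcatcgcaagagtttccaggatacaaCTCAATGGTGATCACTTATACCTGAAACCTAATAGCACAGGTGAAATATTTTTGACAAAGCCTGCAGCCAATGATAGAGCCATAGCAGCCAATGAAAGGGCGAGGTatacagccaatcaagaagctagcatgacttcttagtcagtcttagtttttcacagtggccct
Nlrp9c, chr7:26403651-26403950, minus strand: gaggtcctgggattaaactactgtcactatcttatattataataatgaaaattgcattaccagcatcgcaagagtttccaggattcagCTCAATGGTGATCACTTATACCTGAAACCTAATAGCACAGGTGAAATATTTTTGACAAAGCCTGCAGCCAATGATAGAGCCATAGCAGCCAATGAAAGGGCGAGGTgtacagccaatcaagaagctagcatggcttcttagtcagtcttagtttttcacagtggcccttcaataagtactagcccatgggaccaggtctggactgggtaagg
Nlrp9b, chr7:20007773-20008072, plus strand: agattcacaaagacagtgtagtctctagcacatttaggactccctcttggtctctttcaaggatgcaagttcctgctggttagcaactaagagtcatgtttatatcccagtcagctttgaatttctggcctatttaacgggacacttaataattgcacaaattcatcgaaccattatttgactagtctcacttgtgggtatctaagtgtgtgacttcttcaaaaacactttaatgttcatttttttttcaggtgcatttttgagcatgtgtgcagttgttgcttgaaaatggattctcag
Nlrp4a, second start, chr7:26435364-26435663, plus strand: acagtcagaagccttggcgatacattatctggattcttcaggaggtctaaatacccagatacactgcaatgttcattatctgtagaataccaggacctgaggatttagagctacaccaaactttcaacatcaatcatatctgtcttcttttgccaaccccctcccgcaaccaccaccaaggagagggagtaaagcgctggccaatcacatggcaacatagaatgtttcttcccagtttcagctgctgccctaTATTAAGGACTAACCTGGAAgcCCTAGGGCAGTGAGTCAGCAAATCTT
Nlrp4c, chr7:6044911-6045210, plus strand: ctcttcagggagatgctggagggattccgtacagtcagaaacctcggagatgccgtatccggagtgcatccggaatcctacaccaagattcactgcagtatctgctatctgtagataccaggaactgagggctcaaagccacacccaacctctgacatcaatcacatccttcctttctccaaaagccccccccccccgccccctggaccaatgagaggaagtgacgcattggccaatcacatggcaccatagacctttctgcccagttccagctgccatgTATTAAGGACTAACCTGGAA
Nlrp9a and Nlrp9c shared a run of 106 bases, which began at position −118 from the start of Nlrp9a and −162 from that of Nlrp9c. With the windows shifted by 44 bases, 218 of 256 overlapping bases were identical (85.2%). No other gene's window in the RefSeq table held this run. Nlrp4a shared 20 bases with Nlrp4c and 26 bases with Nlrp4f, on both occasions just after its second start. Among all 53 pairs of windows from different members these were the 3 pairs with a run of 20 bases or more, and the median of the longest shared run was 9 bases.

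The values are scores: on each array the deposited numbers have a mean of 0 and a standard deviation of 1 over all probes, and they were then quantile-normalized over the 12 arrays. A difference is therefore in z units and is not a fold change. A probe counted as above background where it exceeded 95% of 1515 sensory receptor probes (olfactory, vomeronasal, trace amine) on the same array. That level was between −0.43 and −0.37 on the P7 arrays and between −0.21 and 0.08 on the P0 arrays. Age and export of the values cannot be told apart, since the P0 columns carry more decimals than the P7 columns. Arrays of the same group correlated with r from 0.977 to 0.994 over all probes and those of the same age but other genotype with r from 0.952 to 0.973. Probes rose, fell or changed where the limma test gave a Benjamini-Hochberg adjusted p below 0.05 over 23105 probes that were above background on at least 3 arrays.

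Lhx8 itself gave −0.33, −0.23 and −0.15 in KO ovaries at P7, against 0.92, 0.84 and 1.16 in WT. At P0 it gave 0.30, 0.18 and 0.26 in KO ovaries, against 0.95, 1.24 and 1.71 in WT. The genotypes did not overlap at either age, with differences of −1.21 ± 0.15 (SE, adjusted p = 2.51e-05) at P7 and −1.05 ± 0.15 (adjusted p = 0.000268) at P0. The probe remained above background on all 3 arrays of each KO group, and its place relative to the mutated sequence was not known here.

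Of the 15 member probes, 7 probes of 6 genes were above background on at least 3 arrays and were tested: 2 of the 3 probes of Nlrp14 and 1 probe each of Nlrp4a, Nlrp4c, Nlrp4e, Nlrp9a and Nlrp9c. Those of Nlrp4a, Nlrp4e, Nlrp9a and Nlrp9c passed through the 3 WT arrays at P7 alone, so a count over the tested probes is no measure of the family. Nlrp2 was above background on 2 arrays, both KO P0, and Nlrp4f on 1 array, a WT P7 array. The third Nlrp14 probe, 3 of the 4 Nlrp4c probes and the probes of Nlrp4b and Nlrp9b were below background on all 12 arrays. No member probe carried several gene symbols, but probe sequences were not at hand, so cross-hybridisation between these paralogues was not tested.

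**Figure D1:**
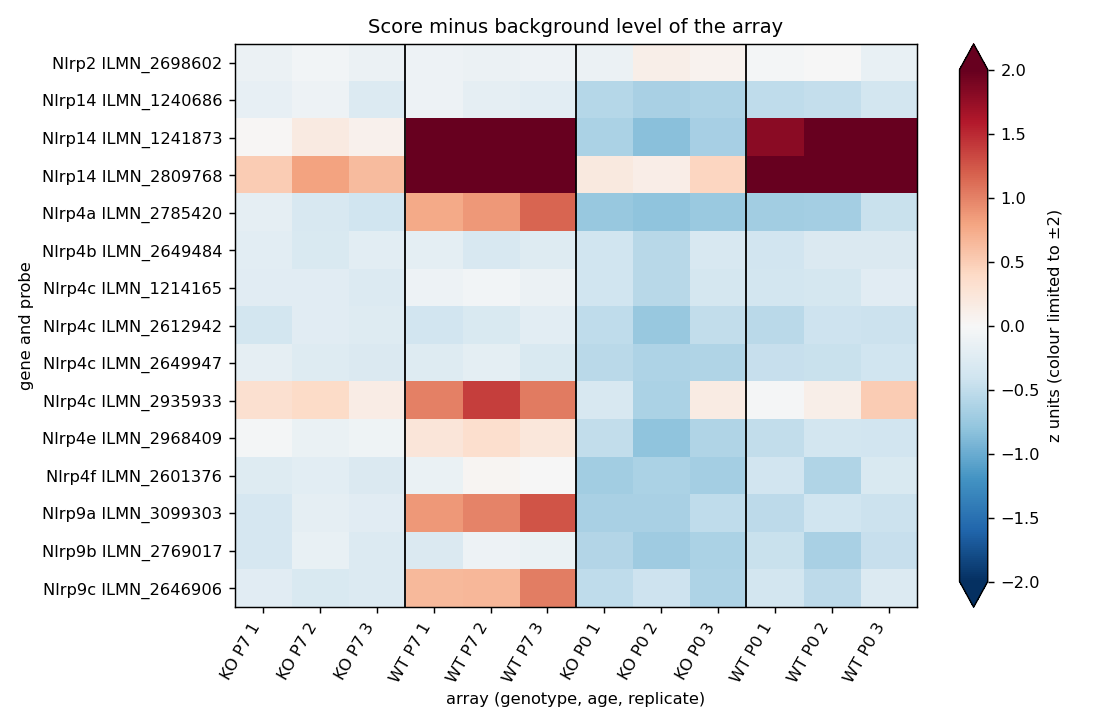
Score minus the background level of the same array (colour, z units, limited to ±2) for the 15 member probes (rows) on the 12 arrays (columns, grouped as KO P7, WT P7, KO P0 and WT P0). The 2 tested Nlrp14 probes stand above background on all WT arrays of both ages. Of these, ILMN_2809768 does so on all KO arrays too, and ILMN_1241873 on the KO P7 arrays. Nlrp4a, Nlrp4e, Nlrp9a and Nlrp9c stand above background on the WT P7 arrays alone.

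The comparison of KO with WT ovaries at P7 asks how the family stood when WT ovaries hold growing follicles. Nlrp14 was far lower in KO ovaries, Nlrp4a, Nlrp9a and Nlrp9c fell below background, and Nlrp4c and Nlrp4e were lower by smaller amounts. With all 15 member probes and no filter on dim probes, 8 probes of 7 genes were lower in KO, none was higher, and 7 did not pass the test. Over all probes without that filter 7.38% were lower and 6.29% higher in KO. The median difference of the 15 probes was −0.20, against 0.012 over all 45281 probes. No member probe was higher at an unadjusted p below 0.05 either. Fewer oocytes and less RNA per oocyte cannot be told apart in RNA of whole ovaries.

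Nlrp14, whose protein is stored in mouse oocytes, had the lowest differences of the family. Probe ILMN_2809768 gave 0.11, 0.39 and 0.26 in KO ovaries at P7, against 5.56, 5.91 and 5.69 in WT ovaries. All KO arrays were far under all WT arrays, and yet above background. The probe averaged 0.25 ± 0.14 in KO and 5.72 ± 0.18 in WT (SD, n = 3 each), which placed it at percentile 75.2 of all probes in KO and 99.9 in WT. The difference was −5.47 ± 0.24 (SE, adjusted p = 1.09e-09), the lowest of all probes tested in quantile-normalized scores. Probe ILMN_1241873 gave −0.38, −0.23 and −0.28 in KO, against 4.22, 4.02 and 4.6 in WT. It too was separated without overlap, by −4.58 ± 0.27 (adjusted p = 1.63e-08). These sizes depend on the scaling, since in scores as deposited the differences were −3.66 and −3.75.

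Nlrp9a and Nlrp9c, NLRP9 paralogues whose loss in mouse has been studied together with that of Nlrp9b, were both lower in KO at P7. Nlrp9a gave −0.74, −0.60 and −0.60 in KO ovaries at P7, against 0.45, 0.56 and 0.84 in WT. Nlrp9c gave −0.63, −0.72 and −0.64 in KO, against 0.24, 0.23 and 0.60 in WT. For both genes every KO array was below background and every WT array above it. Nlrp9a differed by −1.26 ± 0.09 (SE, adjusted p = 7.10e-08) and Nlrp9c by −1.02 ± 0.09 (adjusted p = 1.59e-06). Taken against the background level of the KO arrays, which is what a probe under background allows, these are differences of at least −1.01 for Nlrp9a and at least −0.75 for Nlrp9c. Nlrp9b, which in mouse also acts in intestinal defence against viruses, averaged −0.65 ± 0.09 in KO and −0.59 ± 0.09 in WT, below background on all 6 arrays, so it gave no level to compare.

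Among the Nlrp4 genes, Nlrp4a gave −0.58, −0.74 and −0.77 in KO ovaries at P7, against 0.35, 0.44 and 0.74 in WT. It crossed background in the same way as its neighbours Nlrp9a and Nlrp9c. The difference was −1.21 ± 0.09 (SE, adjusted p = 1.12e-07), and at least −0.91 against background. Nlrp4c gave −0.08, −0.04 and −0.22 in KO with probe ILMN_2935933, against 0.60, 0.95 and 0.61 in WT. Unlike Nlrp4a it remained above background on the KO arrays, at a difference of −0.83 ± 0.16 (adjusted p = 0.00122). Its 3 other probes, below background throughout, did not pass the test without the filter (−0.13 to 0.038). Nlrp4e, whose knockdown in mouse impairs preimplantation embryos, gave −0.44, −0.55 and −0.45 in KO, against −0.16, −0.09 and −0.19 in WT. The groups did not overlap, but the WT level was close to background, and the difference was −0.33 ± 0.06 (adjusted p = 0.0010), at least −0.25.

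The dimmer members added little. Nlrp4f gave −0.66, −0.63 and −0.67 in KO at P7, against −0.54, −0.40 and −0.43 in WT, with 1 WT array above background. Without the filter it passed the test, at −0.20 ± 0.06 (adjusted p = 0.0445). Nlrp2 (0.035 ± 0.083, adjusted p = 0.863) and Nlrp4b (0.039 ± 0.059, adjusted p = 0.772) did not pass it, and both were below background on all P7 arrays. All 7 tested probes had KO and WT arrays at P7 that did not overlap, with KO lower, as did 23.6% of all tested probes. All 7 were called lower, as were 14.2%. Those of Nlrp4a, Nlrp4e, Nlrp9a and Nlrp9c were tested for their WT P7 arrays alone, so these counts are no measure of the family.

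**Figure D2:**
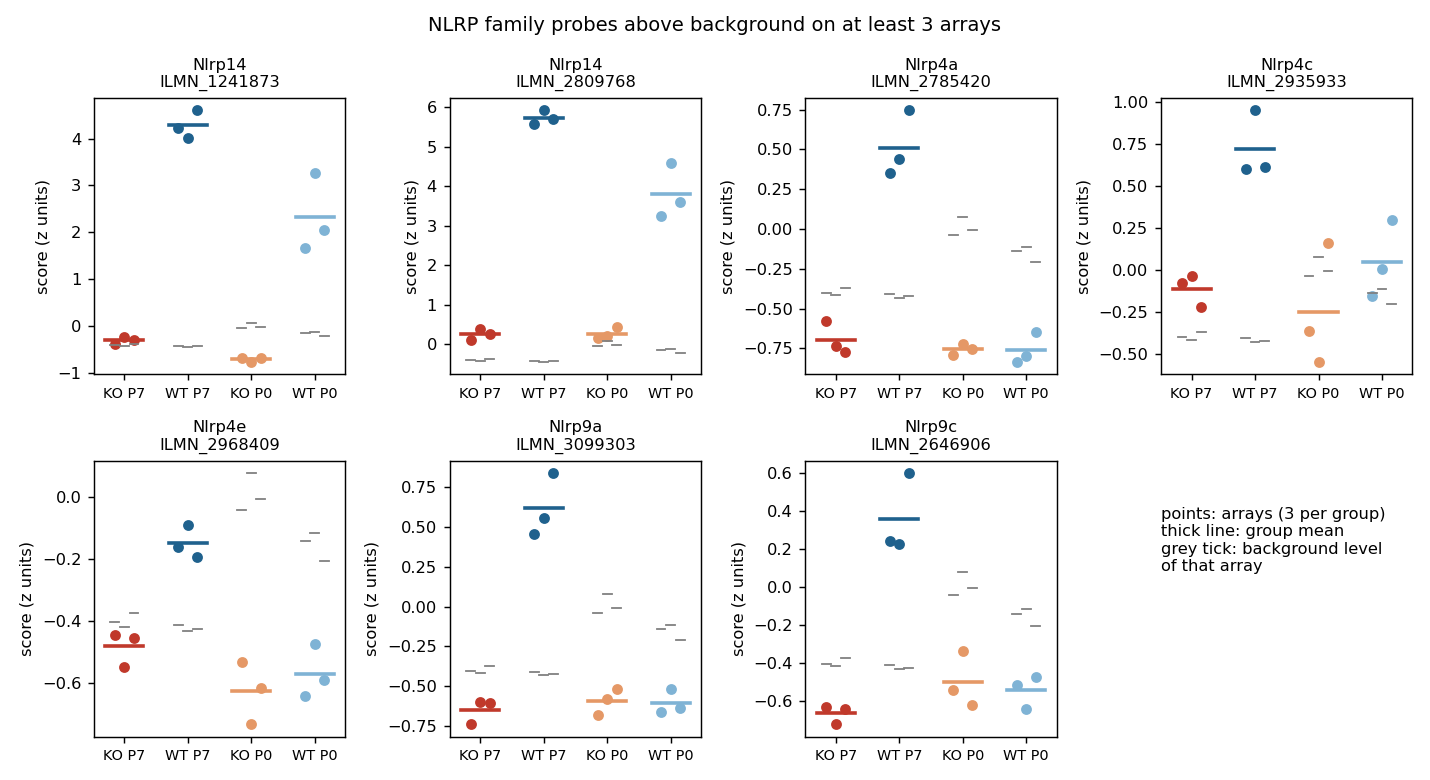
Scores (vertical axes, z units, a scale of its own in each panel) of the 7 tested member probes on each array, grouped as KO P7, WT P7, KO P0 and WT P0. Points are arrays, thick lines group means and grey ticks each array's background level. WT P7 arrays are the highest in every panel, and at P0 Nlrp14 alone shows separated genotypes. The probes of Nlrp4a, Nlrp4e, Nlrp9a and Nlrp9c were tested for their WT P7 arrays alone.

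The comparison at P0 asks which members already differed at birth. Nlrp14 was lower in newborn KO ovaries by both tested probes, and no other member passed the test. Without the filter on dim probes, 2 of 15 probes were lower and none was higher, while 4.63% of all probes were lower and 3.92% higher. The median of the 15 probes was 0.012, against 0.011 over all probes. At an unadjusted p below 0.05, 1 of the 15 probes, that of Nlrp2, was higher.

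Nlrp14 probe ILMN_2809768 gave 0.15, 0.20 and 0.43 in KO ovaries at P0, against 3.25, 4.59 and 3.60 in WT. Probe ILMN_1241873 gave −0.68, −0.75 and −0.68 in KO, against 1.66, 3.27 and 2.04 in WT. The genotypes were separated by more than the spread of the WT arrays, which was wide at this age (SD 0.70 and 0.84, n = 3). Probe ILMN_2809768 differed by −3.55 ± 0.24 (SE, adjusted p = 4.39e-07), and probe ILMN_1241873, below background in KO, by −3.03 ± 0.27 (adjusted p = 4.15e-06), at least −2.31. Probe ILMN_2809768 was at percentile 75.4 of all probes in KO and 98.98 in WT at birth.

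Nlrp4c was the other tested member with any array above background at P0. It gave −0.37, −0.55 and 0.16 in KO ovaries, against −0.16, 0.00 and 0.30 in WT. The third KO array lay among the WT arrays, so the genotypes overlapped, and the difference of −0.30 ± 0.16 did not pass (adjusted p = 0.209). Without that array it was −0.52 and passed the test (adjusted p = 0.0247), and without the second KO array it was −0.16 and did not (adjusted p = 0.567). Nlrp4a, Nlrp4e, Nlrp9a and Nlrp9c were below background in both genotypes and differed by −0.058 to 0.044. Nlrp2, a maternal-effect gene, gave −0.16, 0.20 and 0.06 in KO ovaries, against −0.18, −0.12 and −0.35 in WT. This was the only member with a KO array at P0 above background and all WT arrays at P0 below it, and without the filter its difference of 0.25 ± 0.08 did not pass (adjusted p = 0.0718). Of all tested probes 10.4% were called lower and 7.58% higher at P0, and 16.1% had lower KO arrays that did not overlap with WT.

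**Figure D3:**
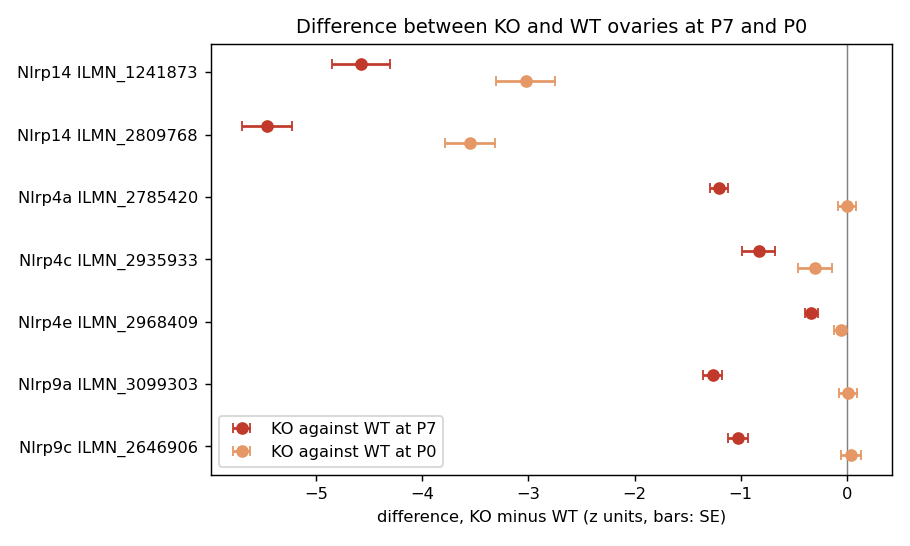
Difference between KO and WT ovaries (horizontal axis, KO minus WT in z units, bars SE of the limma fit) for the 7 tested member probes at P7 (red) and P0 (orange). All 7 lie below 0 at P7, but those of Nlrp4a, Nlrp4e, Nlrp9a and Nlrp9c were tested for their WT P7 arrays alone. At P0 the Nlrp14 probes lie at −3.55 and −3.03 (the second at least −2.31 against background) and the others between −0.30 and 0.044.

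The interaction of genotype and age asks whether the KO minus WT difference at P7 was unlike that at P0. It was more negative at P7 for Nlrp9a (−1.28 ± 0.12 SE, adjusted p = 2.14e-05), Nlrp4a (−1.21 ± 0.12, adjusted p = 3.63e-05) and Nlrp9c (−1.07 ± 0.13, adjusted p = 0.000207). These 3 genes were below background in KO at P7 and in both genotypes at P0, so their values are those of scores mostly below background, and what was measured is the P7 difference of at least −1.01 for Nlrp9a, −0.91 for Nlrp4a and −0.75 for Nlrp9c. For the Nlrp14 probes it was −1.92 ± 0.33 (ILMN_2809768, adjusted p = 0.00249) and −1.55 ± 0.39 (ILMN_1241873, adjusted p = 0.0205), the second with KO arrays below background at P0. That result of Nlrp14 hung on the scaling: in scores as deposited the values were 0.44 (adjusted p = 0.554) and −0.71 (adjusted p = 0.316), and with arrays scaled by their median 0.50 and −0.65. Nlrp4c (−0.53 ± 0.23, adjusted p = 0.143) and Nlrp4e (−0.28 ± 0.09, adjusted p = 0.0577) did not pass in quantile-normalized scores and did pass under both other scalings. Among all tested probes 4.86% had a called negative interaction and 5.79% a positive one.

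**Figure D4:**
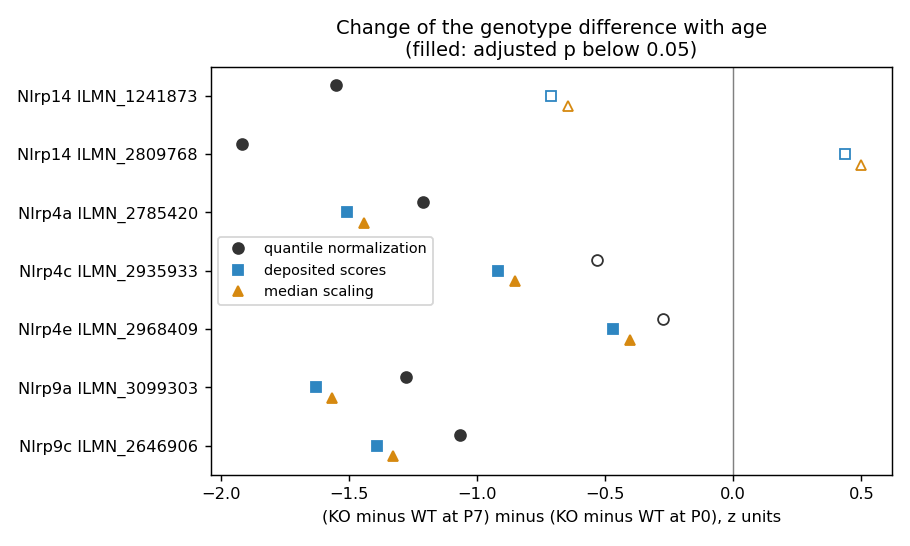
Change of the genotype difference with age (horizontal axis, KO minus WT at P7 less KO minus WT at P0, z units) for the 7 tested member probes under 3 scalings of the arrays. Circles are quantile-normalized scores, squares scores as deposited and triangles median-scaled scores, filled where the adjusted p was below 0.05. Nlrp4a, Nlrp9a and Nlrp9c are filled under all 3, and Nlrp14 probe ILMN_2809768 changes side. The probes of Nlrp4a, Nlrp4e, Nlrp9a and Nlrp9c were tested for their WT P7 arrays alone.

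Age was compared within each genotype. In WT ovaries all 7 tested probes were higher at P7 than at P0, as were 28.2% of all tested probes (22.3% were lower), but 4 of them had been kept for their P7 level. Over all 15 probes without the filter 7 were higher and 2 were lower (Nlrp2 and Nlrp4b), against 21.0% higher and 21.3% lower over all probes. Nlrp2 and Nlrp4b were below background on every WT array, so they gave no level to compare. Nlrp4a was higher by 1.27 ± 0.09 (SE, adjusted p = 1.01e-07), Nlrp9a by 1.22 ± 0.09 (adjusted p = 1.42e-07) and Nlrp9c by 0.90 ± 0.09 (adjusted p = 4.31e-06). Against background these are at least 0.67 for Nlrp4a, 0.77 for Nlrp9a and 0.51 for Nlrp9c. Nlrp4c was higher by 0.67 ± 0.16 (adjusted p = 0.00287), and Nlrp4e by 0.42 ± 0.06 (adjusted p = 7.45e-05) but at least 0.0067 against background. Nlrp14 probe ILMN_1241873 was higher by 1.95 ± 0.27 (adjusted p = 4.82e-05), and by 1.01 in scores as deposited. Nlrp14 probe ILMN_2809768 was higher by 1.91 ± 0.24 (adjusted p = 1.57e-05), but in scores as deposited its difference was −0.18 and with median scaling −0.095, neither of which passed. Median scaling moved the median difference of all tested probes to 0.26, against 0.035 with quantile normalization.

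In KO ovaries none of the 7 tested probes passed the limma test between P7 and P0, while 30.7% of all tested probes were higher and 20.1% lower at P7. At an unadjusted p below 0.05 there was 1 such probe, that of Nlrp4e (0.15 ± 0.06, adjusted p = 0.0642). Without the filter 3 of the 15 probes were lower at P7, namely those of Nlrp2 and Nlrp4b and Nlrp4c probe ILMN_1214165, and none was higher, against 21.2% lower and 20.5% higher over all probes. Of these 3, Nlrp2 was above background on 2 KO arrays at P0, and the others were below it on every KO array. Nlrp14 probe ILMN_2809768 averaged 0.25 ± 0.14 at P7 and 0.26 ± 0.15 at P0 in KO ovaries (SD, n = 3 each). Its difference with age was −0.0091 in quantile-normalized scores, with a 95% interval from −0.51 to 0.49, and 0.26 in scores as deposited.

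Other genes of the same egg complexes moved at both ages. Of 8 tested probes for the subcortical maternal complex and lattice genes (Nlrp5, Ooep, Tle6, Khdc3, Padi6 and Zbed3), 8 were lower in KO at P7 and 7 at P0, with median differences of −2.90 and −2.39, against 0.023 and −0.0052 over all tested probes. Of all tested probes 14.2% were lower at P7 and 10.4% at P0. Zbed3, which takes part in organelle placement in mouse oocytes, differed by −0.12 ± 0.08 (SE) at P0 (adjusted p = 0.354). Its probe was tested for its WT P7 arrays alone. Nlrp5, an NLRP gene of that complex, was lower in KO by its 3 probes at both ages, at −3.30, −2.92 and −2.40 at P7 and −3.81, −3.41 and at least −0.71 at P0, where KO arrays were below background by the third probe (ILMN_2646011). Nlrp4g, no member of the list and chosen after its values were seen, gave −0.60, −0.52 and −0.65 in KO at P7, against 0.86, 1.15 and 1.02 in WT, and −0.59, −0.57 and −0.53 in KO at P0, against 0.11, 0.13 and 0.30 in WT. It was thus separated at both ages, by at least −1.41 at P7 and at least −0.17 at P0 against background.

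Oocyte growth and maternal-effect genes, a list of stored transcripts that includes those complex genes, were lower by all 36 tested probes at P7. At P0 23 of 36 were lower, and the medians were −2.48 at P7 and −0.91 at P0. Over all tested probes 14.2% were lower and 13.7% higher at P7, and 10.4% and 7.58% at P0. Some of the list's probes, such as those of Kpna7, Obox1, Obox5 and Oosp3, were above background on WT P7 arrays alone. They were tested for those arrays, so the P7 count is no measure of the list. Oocyte transcription regulators were lower by 9 and higher by 2 of 12 probes at P7, and lower by 6 at P0. In scores as deposited or median-scaled 10 were lower and 1 was higher at P7. This list includes the mutated gene Lhx8 itself, whose probe was among the lower ones at both ages. Pan germ cell genes, listed as general germ cell genes, were lower by 9 of 12 probes at P7. The list also changed with age in WT ovaries, where 5 probes were lower and 2 higher at P7 than at P0. At P0 the pan germ cell genes were lower in KO by 6 and higher by 4 of 12 probes. They ran from −2.07 ± 0.20 (SE) for Dppa5a, which is also known from pluripotent cells, to 1.13 ± 0.12 for Tex19.1, a germ cell gene that restrains mobile elements in mouse, with a median of −0.21. Ddx4, a germ cell RNA helicase, did not pass at P0 by either probe (0.25 and 0.0021).

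NLR and inflammasome genes outside the oocyte branch mostly did not pass the test. Of 27 listed genes 11 were tested, by 18 probes. At P7 10 of these probes did not pass, 7 probes of 4 genes were higher in KO and 1 was lower, against 13.7% higher and 14.2% lower over all tested probes. The list's median was 0.19. Scores as deposited gave the same counts, with a median of 0.16. The 3 probes of Gsdmd, which encodes the pore-forming gasdermin D, were higher by 0.34 to 0.92. The other called genes, named after their values were seen, were Nlrx1, Casp1 and Il18 (higher) and Nlrc5 (lower). At P0 16 of 18 probes did not pass, and there was 1 higher probe (Gsdmd) and 1 lower probe (Nlrx1 ILMN_2708222), which was higher in KO at P7. Macrophage and leukocyte markers moved with these genes at P7: 9 of 15 probes were higher in KO and none lower, and the mean of the 15 probes per array was 0.12 to 0.24 in KO, against −0.12 to −0.06 in WT. At P0 4 were higher, but 1 in scores as deposited or median-scaled, and the mean was 0.05 to 0.28 in KO, against −0.01 to 0.08 in WT. Their part in these results was not tested.

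Granulosa cell markers, of the cells around oocytes, were lower by 11 and higher by 3 of 20 probes in KO at P7, and higher by 2 at P0. Over all tested probes 14.2% were lower and 13.7% higher at P7, and 10.4% and 7.58% at P0. The mean of the 20 probes was 1.2 to 1.25 in KO at P7, against 1.43 to 1.64 in WT, and 0.91 to 1.0 in KO at P0, against 0.81 to 0.88 in WT. Endothelial markers were higher by 3 of 11 probes at either age (3 at P7 and 1 at P0 in scores as deposited). Testis somatic markers were higher by 1 and lower by 1 of 9 probes at either age (in scores as deposited, 3 lower at P7 and 1 higher at P0). The markers named for oocytes were lower by 7 of 8 probes in KO at P7 and lower by 5 and higher by 1 at P0. Their mean per array was −0.18 to −0.08 in KO at P7, against 2.18 to 2.33 in WT, and 0.35 to 0.57 in KO at P0, against 1.32 to 1.78 in WT. How far these shifts in marker levels bear on the NLRP differences was not tested.

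Correlations among the members were taken across all groups at once, and none was computed within a group. Over the 12 arrays the 2 Nlrp14 probes correlated at r = 0.99, and Nlrp4a at r = 0.98 with Nlrp9a and 0.97 with Nlrp9c. Nlrp9a and Nlrp9c correlated at r = 0.96, while Nlrp4e and Nlrp14 probe ILMN_2809768 had the lowest r, 0.71. Points of 1 group share genotype, age and scaling, so these values are a description. The mean profile of the tested members took probes centred but not scaled, so the 2 Nlrp14 probes, with the widest differences, weigh most in it. It is therefore no profile common to the members. This mean was most like the profiles of Cpsf4l (r = 0.995), Khdc3 (0.995), Fbxw27 (0.994), Cenpn (0.992) and Fbxw18 (0.991). Mos, Cfap58, Omt2b, Zp1 and Gdf9 followed (0.991 to 0.988). Khdc3 encodes a protein of the subcortical maternal complex, Mos the kinase that holds eggs in metaphase, Zp1 an egg coat protein and Gdf9 a growth factor of oocytes. The probes nearest to Nlrp14 were those of Zp3, Mtmr14 and Oas1d (0.994 to 0.992), and those nearest to Nlrp9a were of Khdc1c, Klf17 and Lrrc28 (0.995 to 0.987). For Nlrp4a they were Gm5, Hdlbp and Elavl3 (0.992 to 0.987) and for Nlrp9c Gpr1, Fbxw19 and Ftdc1 (0.99 to 0.984). Nlrp4c (Clspn, Blm and Rif1, 0.958 to 0.951) and Nlrp4e (Nmt1, Ncapd3 and Fam78a, 0.974 to 0.970) had less close neighbours.

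The promoter windows were searched on both strands for the letters of homeodomain core 1 (TAATTG), core 2 (TAATTA) and core 3 (TGATTG), for the E-box (CANNTG) and for the TATA box (TATAAA). Core 3 was found in 8 of the 11 windows, and in 14% of all 32851 RefSeq promoter windows of the same length. These 8 windows were of 6 of 9 genes (Nlrp2, Nlrp4a, Nlrp4b, Nlrp4c, Nlrp9a and Nlrp9c). The windows of the Nlrp4b starts overlap and hold the same match, so it was counted for each. In all 6 genes (for Nlrp4a at the second start) a match lay within the letters ccaatca, which hold core 3 on the other strand. The run gccaatca, shared by Nlrp4a, Nlrp4c, Nlrp9a and Nlrp9c, was in windows of 634 genes, so these matches are not particular to the family. Core 1 was found in Nlrp9a and Nlrp9b (8% of all windows), core 2 in Nlrp9a (5.29%) and the TATA box letters in Nlrp9b (13.6%). The E-box letters were found in 10 of the 11 windows (8 of 9 genes, all but Nlrp2), and in 72.3% of all windows. In Nlrp4a, Nlrp4b and Nlrp4c a match of core 3 overlapped an E-box match. Of the genes with core 3, Nlrp4a, Nlrp4c, Nlrp9a and Nlrp9c were lower in KO at P7. Nlrp2 and Nlrp4b were below background on all P7 arrays and gave no level to compare. Of those without it, Nlrp4e was lower by −0.33 and Nlrp4f by −0.20 in the fit without the filter, while Nlrp9b was below background. A link between motif and expression was not tested. Duplicated genes share these letters through their common sequence, so the 6 genes are not 6 independent cases, and a match of letters is not a site of binding.

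**Figure D5:**
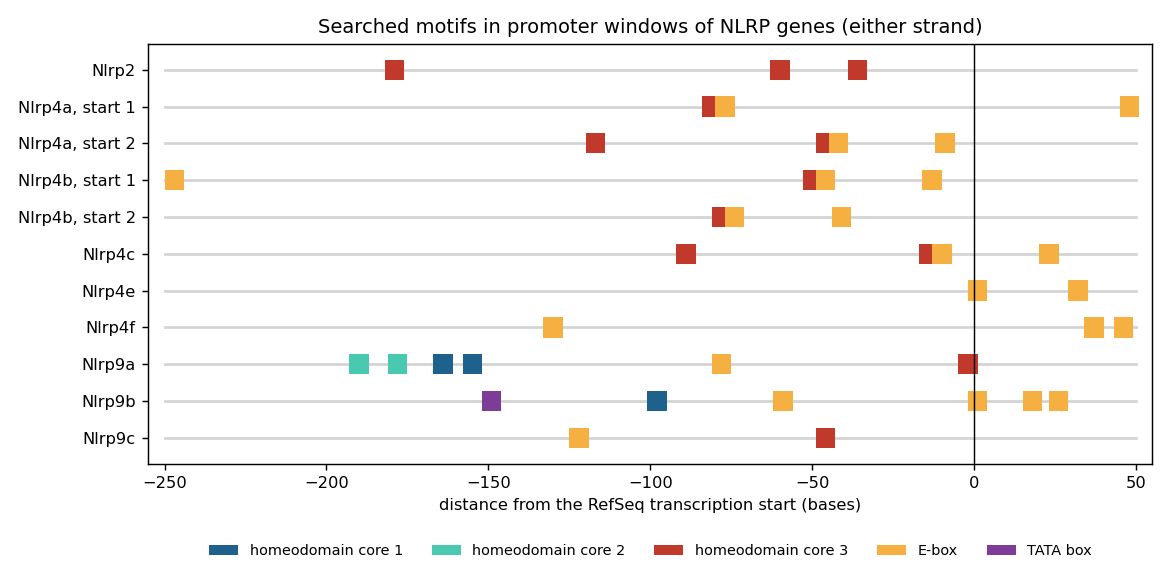
Matches of the 5 searched motifs in the 11 promoter windows of 9 member genes (rows), by distance from the RefSeq transcription start (horizontal axis, bases; either strand). Homeodomain core 3 (red) appears in windows of 6 genes and the E-box (yellow) in those of 8, and where both overlap the red mark is partly covered.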

How the data were processed

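Total RNA of ovaries from 12 animals was hybridised to Illumina BeadChips, per the labels' protocols, and the submitters' processing notes name GenomeStudio 2011.1. The values the authors deposited are scores with a mean of 0 and an SD of 1 on each array, as tested on the values; whether a log was taken first is unknown here. Genotype, age and replicate number came from the sample titles. A further 48 columns name a genotype and an animal code but no single sample, and were not used.

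Scores were quantile-normalized over the 12 arrays. Probes above the 95th percentile of 1515 receptor probes taken to be silent in ovary on at least 3 arrays were kept (23105 of 45281, without regard to gene names). Differences were fitted with limma 3.58.1 in R 4.3.3 (lmFit, eBayes with trend) as 1 model with the 4 groups and no covariate (8 residual degrees of freedom), with Benjamini-Hochberg adjustment over all probes kept. The script was tested on simulated data. An exact permutation test of 3 against 3 arrays cannot go below p = 0.1, so single probes rest on the model. Where the lower group was below background on every array, the difference to each array's background level is given as a bound ("at least"), and none where both groups were below it. Precision is limited by the number of arrays.

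Of all probes 34885 had 1 gene symbol in the platform annotation, 18 had several and 10378 had none; 99.8% of gene IDs were found in RefSeq (GRCm38.p6), which updated symbols. Named were all member probes, Lhx8, Nlrp5, the probes of highest correlation with the members (10 for their mean, 3 for each), and from other lists the largest differences and the closest misses, with those marked in the text as exceptions. The members, the gene lists and the motifs were chosen with earlier results of these data known. The design had foreseen log-scale or standardized values. KO and WT animals share replicate numbers, and same-numbered arrays deviated together with r from −0.16 to 0.14. This showed no clear pairing by number but cannot exclude one, and the main fit used none. Alternatives were other scalings, filters, model settings, 1 probe per gene, arrays left out and a replicate block.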

Additional observations from a re-analysis of the deposited data

Results flagged for a closer look

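For 5 of the 7 tested member probes the KO minus WT difference at P7 was unlike that at P0 by the interaction test of the limma model. All 5 were called negative, as were 4.86% of all tested probes, while 5.79% were called positive. The Nlrp4a, Nlrp9a and Nlrp9c probes among them were tested for their WT P7 arrays alone. The change of the difference with age was −1.28 for Nlrp9a, −1.21 for Nlrp4a and −1.07 for Nlrp9c, genes that were below background on every array but those of WT ovaries at P7. For these genes the values rest on scores below background, and what was measured is the P7 difference of at least −1.01 for Nlrp9a, −0.91 for Nlrp4a and −0.75 for Nlrp9c. For Nlrp14 it was −1.92 by probe ILMN_2809768 and −1.55 by probe ILMN_1241873, which was below background in KO ovaries at P0, in quantile-normalized scores, and both lost the call under the other scalings. Age and the export of the values cannot be told apart, and the background level of the arrays differed with age.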

How the results depend on the processing

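At P7 every tested member probe stayed lower in KO and passed the test under each alternative that tested it. Both Nlrp14 probes did so at P0, and Nlrp4a, Nlrp9a and Nlrp9c in the interaction. The probes of Nlrp4a, Nlrp4e, Nlrp9a and Nlrp9c were tested for their WT P7 arrays alone, so these counts are no measure of the family. With background required on 6 arrays, fewer members were tested, and 3 passed at P7, 2 in the interaction and 3 between ages in WT. With 1 probe per gene, which tests fewer probes, 1 member passed at P0, and all probes called were 4027 at P7, 2623 at P0, 1590 in the interaction, 6083 between ages in WT and 6035 in KO. Array weights gave 10325 calls at P7, and a fit to the arrays compared alone gave 1806 at P0 and 1 member between ages in KO (Nlrp14 ILMN_1241873, 0.37); the cause was not tested. Without the filter, 19136 probes were called between ages in WT and 18864 in KO, 3 of them members. Scores as deposited gave 1 member called between ages in KO (Nlrp9c, −0.27).

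Nlrp14 ILMN_2809768 turned in the interaction to 0.44 in scores as deposited and 0.50 with median scaling, between ages in WT to −0.18 and −0.095, and in KO to 0.26 and 0.41; the cause was not tested. The other Nlrp14 probe lost its interaction call with robust eBayes (adjusted p = 0.0584). Nlrp4a at P0, below background, turned to −0.046 with median scaling. Calls that were higher made up 49.1%, 34.8% and 37.5% at P7 with quantile, deposited and median scaling, 42.2%, 28.2% and 16.9% at P0, 54.4%, 39.4% and 56.4% in the interaction, 55.8%, 73.1% and 81.6% between ages in WT, and 60.4%, 70.2% and 84.7% in KO.

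Each array was left out in turn with the filter not redone, so the same 23105 probes were tested each time. The probes of Nlrp4a, Nlrp4e, Nlrp9a and Nlrp9c were above background on the 3 WT P7 arrays alone. Without any of these arrays, a redone filter would have left the probes of these genes untested. With the filter fixed in this way, 7 to 7 members were called at P7, 2 to 3 at P0 and 5 to 6 in the interaction. Between ages 7 to 7 were called in WT and 0 to 1 in KO. All probes called were 4775 to 6994, 2782 to 4246, 1417 to 2795, 9645 to 12298 and 9844 to 12031 in the same comparisons; the lowest interaction count came without KO P7 replicate 1, and that without KO P7 replicate 2 was 1508. Under background at P0 the sign of Nlrp4a (−0.031 to 0.060), Nlrp9a (−0.024 to 0.057) and Nlrp9c (−0.037 to 0.11) varied, as did that of Nlrp4c (−0.0083 to 0.36) and Nlrp14 ILMN_2809768 (−0.076 to 0.076) between ages in KO. A replicate block called the same numbers of members (7 at P7, 2 at P0, 5 in the interaction) and 6331 probes at P7, 3952 at P0 and 2286 in the interaction, and changed no member's call. The planned fit to bead signals was not run, because their columns could not be tied to samples. A member below background gives only a bound.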
